A study of Mus musculus with 12 samples.

Results

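Mouse embryonic stem cells collected at day 2 of a time course were compared with the same cells at day 0, gene by gene, in libraries made from polyadenylated RNA. The comparison used 6 of the 12 libraries of the series, 3 at day 2 and 3 at day 0. The remaining libraries, 3 at day 4 and 3 at day 6, entered the low-count filter, the scaling and the shared estimate of replicate spread. All libraries carry the same cell line label, mESC, and the same culture note, which gives a serum replacement medium containing leukaemia inhibitory factor and gelatin plates with irradiated embryonic fibroblasts as feeders. The labels used here name no retinoid or other agent, genotype, strain or sex and describe no change of culture after day 0, so the groups differ, as far as the labels go, by time alone. They also do not say that the 3 libraries of a day came from separate cultures, and p-values therefore measure the spread between libraries, which may be technical. Of 55335 genes in the table, 16468 had enough counts to be tested.

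Embryonic stem cells derive from the inner cell mass of the blastocyst and can form every tissue of the embryo; leukaemia inhibitory factor keeps mouse lines in this state. Among the signals that move them out of it is retinoic acid, made inside cells from retinol by 2 oxidation steps and bound by the nuclear receptors RAR and RXR, which sit as a pair on direct repeats of a short DNA hexamer. Cells exposed to retinoic acid switch on the enzymes and receptors that handle it, and genes of the Hox clusters, which pattern the body axis, respond in an order that follows their place in the cluster.

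A total of 11216 genes (68.1% of those tested) passed an adjusted p of 0.05 and are referred to as called: 5743 rose at day 2 (34.9%) and 5473 fell (33.2%). Most changes were small. The called genes had a median absolute log2 fold change of 0.67, and 4861 of them changed by less than 1.5-fold; 1960 rose (11.9%) and 1704 fell (10.3%) by at least 2-fold, and 787 rose and 536 fell by at least 4-fold. At 16-fold or more, 164 genes rose and 45 fell. The median log2 fold change over all genes tested was 0.02, which is the background for the gene lists described here. Levels are in CPM, that is, counts scaled to a common library size, and adjusted p-values come from the quasi-likelihood test of edgeR, with the Benjamini-Hochberg method applied over all 16468 genes. Among the 1198 genes under 1 CPM, 423 rose (35.3%) and 128 fell (10.7%) by at least 2-fold. At 1 to 5 CPM, 669 rose (17.7%) and 715 fell (18.9%) by that much, and at 5 to 20 CPM 520 (12.7%) and 449 (11%). At 20 to 100 CPM, 291 rose (5.59%) and 311 fell (5.98%), at 100 to 500 CPM 48 (2.51%) and 87 (4.54%), and over 500 CPM 9 (3.06%) and 14 (4.76%). Of the genes tested, 95 had no count at day 0 and 10 had none at day 2. The part of the low-count filter in the excess of rises was not tested.

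**Figure D1:**
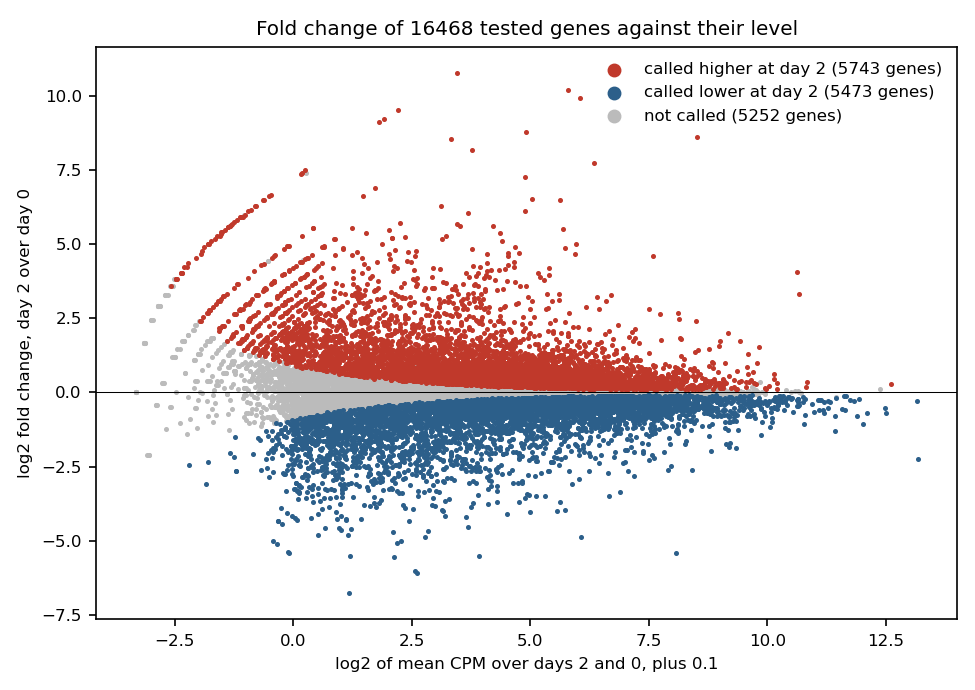
Each point is a gene tested, with its mean level over the days (log2 of CPM plus 0.1) across and its log2 fold change, day 2 over day 0, upward; red points were called higher at day 2, blue points lower and grey points were not called. The 5743 higher and 5473 lower genes lie around a median of 0.02, the widest changes at low levels.

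The day 2 libraries held 10590457 to 12786886 counts, against 8083420 to 9483951 at day 0. Replicates of a day lay close together, with a common coefficient of variation of 0.0415, and the first principal component of the 6 libraries, 87.6% of their variance, separated the days. For 11638 genes (70.7%) the libraries of the days did not overlap. The transcript Gm42418 took 0.322% to 0.3505% of counts at day 2 and 1.41% to 1.44% at day 0; with it and the mitochondrially encoded genes left out, 11194 genes were called. The label of embryonic stem cells was borne out by the defining markers, all 10 of which were present: their summed level was 1830.3 to 1868 CPM at day 2 and 5332 to 5408 CPM at day 0, and all 10 fell. The 14 markers of primitive, parietal and visceral endoderm summed to 2580.5 to 2634 CPM at day 2 and 803 to 833 CPM at day 0, and all 14 rose. Most of the day 0 sum was Col4a1 and Lama1, with means of 465 and 190.2 CPM, while Afp and Ttr had 2 and 5 counts over the 3 day 0 libraries. In such bulk libraries, fewer cells of a type and less RNA per cell cannot be told apart.

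Most enzymes and carriers that take up, store and oxidise retinol rose, and 2 genes of the retinoid system, Cyp26a1 and Rarb, carry a repeat of the kind that RAR and RXR bind just before their start sites. The start-site windows (250 bases before to 50 after each annotated start, RefSeq, build GRCm38.p6) of the tested genes were searched on both strands for the hexamer AGGTCA or its variants AGTTCA (as in Cyp26a1), GGGTCA (in neither gene) and GGTTCA (as in Rarb), followed by a spacer of 5 bases and another of these hexamers in the same orientation. The repeat was found in 6 of 11417 tested genes with a window (0.053%) and in 32 of 32851 windows in the table (0.0974%). Among genes called at least 4-fold higher it was in 2 of 462 (0.433%), among those at least 4-fold lower in 2 of 353 (0.567%), and in 0 of 3363 genes not called. The sequences run from upstream to the last base before the start site, on the strand of the gene, with the repeat in capitals, and are shown because they place the repeat in both genes.
Cyp26a1 (chr19:37697716-37697807, plus strand): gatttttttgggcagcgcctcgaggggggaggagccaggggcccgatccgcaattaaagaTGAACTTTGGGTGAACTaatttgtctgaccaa
Rarb (chr14:16575477-16575589, minus strand): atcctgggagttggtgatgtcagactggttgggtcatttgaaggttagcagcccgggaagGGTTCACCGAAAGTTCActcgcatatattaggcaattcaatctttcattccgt

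In Cyp26a1 the repeat lay on the opposite strand, where it reads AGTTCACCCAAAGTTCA, with 15 bases between it and the start site. In Rarb it read GGTTCACCGAAAGTTCA on the gene's own strand, 36 bases from the start. Cyp26a1, which hydroxylates retinoic acid for disposal, had 729, 709 and 746 CPM at day 2, against 2.49, 1.31 and 1.65 CPM at day 0. Rarb, the retinoic acid receptor beta, had 65.9, 62.5 and 65.3 CPM at day 2, against 1.13, 0.263 and 0.633 CPM at day 0. Both were nearly silent in every day 0 library and high in every day 2 library. The other 4 tested genes with the repeat did not share this pattern: Prokr2, a receptor for prokineticins, averaged 1.86 CPM at day 2 and 0.731 CPM at day 0, whereas Cfap45, a cilia and flagella associated protein, fell 5.11-fold, Gm1043 11.1-fold and Blvrb, a biliverdin reductase, 1.37-fold. A match to these letters describes the window and not a bound site.

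Of the genes for retinol uptake, storage and oxidation, 12 of 15 tested members rose and 2 fell, with a median log2 fold change of 1.27. Stra6, the receptor through which cells take retinol from its plasma carrier, had 38.8, 37.9 and 43.8 CPM at day 2, against 1.13, 0.656 and 1.01 CPM at day 0, and its log2 fold change was 5.39 ± 0.15 (SE; edgeR adjusted p = 2.37e-28). The days did not come near each other. Lrat, which esterifies retinol for storage, was low throughout, at 2.20, 1.61 and 2.91 CPM at day 2, against 0.339, 0.131 and 0.380 CPM at day 0. Rbp4, the plasma carrier, averaged 13.8 ± 1.93 CPM at day 2 and 4.65 ± 0.590 CPM at day 0 (SD, n = 3 each).

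The enzymes that convert retinol and retinaldehyde did not all move together. Dhrs3, which turns retinaldehyde back into retinol, had 79.3, 76.5 and 82.5 CPM at day 2, against 3.96, 5.12 and 4.05 CPM at day 0 (edgeR adjusted p = 1.14e-31). Adh1, an alcohol dehydrogenase able to oxidise retinol, had 8.49, 8.92 and 7.73 CPM at day 2, against 0.452, 0.131 and 0.253 CPM at day 0, while Adh5, the formaldehyde dehydrogenase of the same family, fell 1.52-fold. Rdh10, the main retinol dehydrogenase of the embryo, rose 2.34-fold, with means of 8.70 CPM at day 2 and 3.71 CPM at day 0, and Rdh11 and Rdh14 rose 1.46-fold and 1.61-fold. All of these day 2 libraries lay on 1 side of the day 0 libraries. Of the enzymes that make retinoic acid from retinaldehyde, Aldh1a1 had 7.35, 8.04 and 8.73 CPM at day 2, against 0.113, 0 and 0.506 CPM at day 0. Aldh1a2, the main such enzyme of the early embryo, was low, at 2.88, 2.81 and 2.64 CPM at day 2, against 1.13, 1.18 and 1.14 CPM at day 0, and Aldh1a3 fell 2.07-fold, with 0.623 CPM at day 2 and 1.31 CPM at day 0, a fall that DESeq2 did not call (adjusted p = 0.0685) and that was lost without day 2 replicate 1 or 3 (edgeR adjusted p = 0.0608 and 0.0632). Aldh1a1 was all but absent at day 0, Aldh1a2 was higher at day 2 and Aldh1a3 lower.

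**Figure D2:**
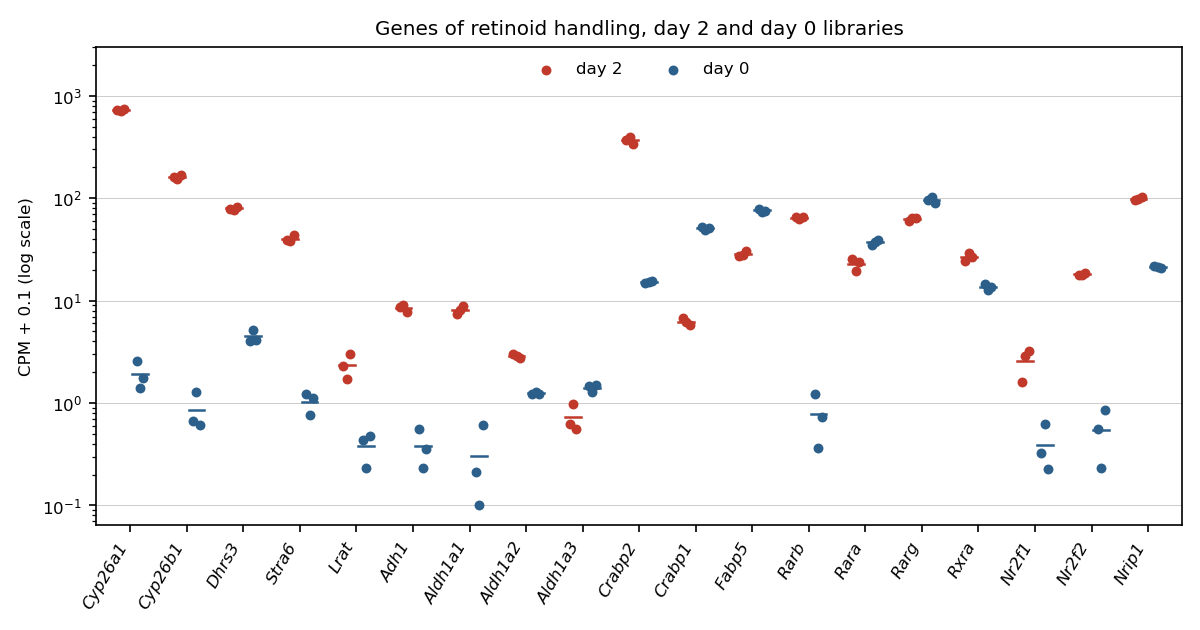
Level in CPM plus 0.1 (log axis) of genes that take up, store, oxidise, bind or degrade retinoids, with a point for each library and a bar at the mean, day 2 left of day 0. Stra6 lay at 37.9 CPM or more in the day 2 libraries and at 1.13 CPM or less in those of day 0, while Crabp1 ran the other way.

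Binding proteins and receptors did not move as a block: for the list of binding proteins, receptors and coregulators 7 rose and 7 fell of 17 tested, with a median log2 fold change of 0.16, and with library size as the only scaling 8 rose and 5 fell. The 2 cellular retinoic acid binding proteins changed in opposite directions. Crabp2, which passes retinoic acid to RAR, had 374, 392.2 and 337 CPM at day 2, against 14.8, 15.2 and 15.6 CPM at day 0, a 24.2-fold rise (edgeR adjusted p = 5.39e-23). Crabp1, thought to pass it to degrading enzymes, had 6.67, 6.11 and 5.64 CPM at day 2, against 52.8, 49.1 and 50.6 CPM at day 0, a log2 fold change of -3.04 ± 0.09 (edgeR adjusted p = 1.2e-27). Per kilobase of exon, Crabp2 stood at 278 CPM at day 2 and 11.5 at day 0, and Crabp1 at 7.65 and 63.4 on the same days, so the order of the pair's levels was reversed between the days. Fabp5, a carrier that can pass retinoic acid to PPAR delta, fell 2.67-fold.

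Of the receptors besides Rarb, Rara fell 1.61-fold and Rarg fell 1.54-fold, while Rxra, the partner shared by many receptors, rose 1.95-fold; Rxrb, called only under library size alone, and Rxrg were not called. Nr2f2 and Nr2f1, the COUP-TF orphan receptors, were among the larger rises: Nr2f2 had 17.8, 17.6 and 18.6 CPM at day 2, against 0.452, 0.131 and 0.759 CPM at day 0, and Nr2f1 averaged 2.47 ± 0.841 CPM at day 2 and 0.293 ± 0.207 CPM at day 0 (SD, n = 3 each). Nrip1, a corepressor that ligand-bound receptors recruit, had 95.6, 97.4 and 102 CPM at day 2, against 21.5, 21 and 20.6 CPM at day 0 (edgeR adjusted p = 4.44e-28). The libraries of the days did not overlap.

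A block of 6 neighbouring microRNA genes of chromosome 7, the miR-290 cluster, fell together. These microRNAs are among the most abundant of mouse embryonic stem cells and are known to speed passage through G1 of the cell cycle. Mature sequences from RefSeq (GRCm38.p6) matched 5 of the 6 genes; they are shown, with bases 2 to 8, the seed that pairs with targets, in capitals, so that the seeds of neighbours can be compared.
miR-291a-3p (chr7:3218968-3218989): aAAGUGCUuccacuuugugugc
miR-291b-3p (chr7:3219529-3219550): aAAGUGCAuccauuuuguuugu
miR-293-3p (chr7:3220390-3220411): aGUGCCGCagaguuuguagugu
miR-294-3p (chr7:3220691-3220712): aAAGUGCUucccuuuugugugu
miR-295-3p (chr7:3220815-3220837): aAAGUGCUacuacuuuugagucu

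The seed AAGUGCU is shared by 3 of them (miR-291a, miR-294 and miR-295), miR-291b carries AAGUGCA and miR-293 carries GUGCCGC. Reads on these genes come from polyadenylated RNA at the hairpin and not from mature microRNA, and the counts were low. Mir291b had 2.73, 1.45 and 2.09 CPM at day 2, against 10.6, 12.6 and 10.5 CPM at day 0, a log2 fold change of -2.41 ± 0.19 (edgeR adjusted p = 5.52e-14). Mir291a had 0.834, 1.29 and 0.637 CPM at day 2, against 3.16, 4.46 and 3.54 CPM at day 0 (edgeR adjusted p = 4.19e-07). For both, every day 2 library was below every day 0 library. Mir293 fell 3.59-fold, Mir292 2.83-fold, Mir294 2.37-fold and Mir295 2.33-fold. The libraries of the days came close for Mir294, at 1.06, 1.21 and 0.909 CPM at day 2, against 3.73, 2.49 and 1.27 CPM at day 0, and its call was lost without day 0 replicate 1 (log2 fold change -0.81, edgeR adjusted p = 0.0631). Reads of the hairpins and of a primary transcript that spans the cluster cannot be told apart in gene counts.

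Among other microRNA genes and the machinery that acts on them, Mir675, which lies within H19, averaged 3.20 CPM at day 2 and 0.574 CPM at day 0. Of the genes of microRNA processing and the let-7 axis, 6 of 21 tested members rose and 8 fell, with a median log2 fold change of -0.01; with library size alone 10 rose and 6 fell. Lin28a, which blocks let-7 maturation, rose 2.31-fold, with 84.9, 86.4 and 82.2 CPM at day 2, against 35.1, 39.4 and 35.6 CPM at day 0. Trim71, a let-7 target that represses messenger RNAs in stem cells, fell 2.33-fold, and Ago2, the slicing Argonaute, fell 1.91-fold. The high-mobility-group genes that let-7 targets parted: Hmga2 had 163, 152 and 162 CPM at day 2, against 52.7, 55.5 and 50.5 CPM at day 0, whereas Hmga1 had 285, 292 and 255 CPM at day 2, against 947, 864 and 900.1 CPM at day 0. Mycn, a MYC family factor, had 38.7, 42.8 and 44.5 CPM at day 2, against 213, 211 and 218 CPM at day 0 (edgeR adjusted p = 1.71e-31). Each of these 3 genes kept the libraries of the days apart.

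Long noncoding RNAs with names and at least 5 CPM on the higher day were led by transcripts of the Hox clusters among those that rose, with Hoxb3os and Hotairm1 among them. Hotairm1, of the Hoxa cluster, had 31.6, 27.1 and 28.0 CPM at day 2, against 1.70, 1.44 and 1.39 CPM at day 0 (edgeR adjusted p = 1.61e-25). H19, an imprinted transcript, rose 4.43-fold, and Rian and Mirg, of the imprinted Dlk1 to Dio3 domain, rose 2.36-fold and 2.89-fold. Among those that fell, Pvt1, the neighbour of Myc, had 2.27, 1.69 and 1.91 CPM at day 2, against 13.3, 17.2 and 16.4 CPM at day 0 (edgeR adjusted p = 5.39e-18). Miat fell 7.06-fold, and Platr10, of the pluripotency-associated transcripts, fell 5.97-fold; Platr15, Platr13, Platr4 and Platr21 were also among the 10 largest falls. Over all 720 long noncoding RNAs tested, 171 rose (23.8%) and 227 fell (31.5%). How the counting treated strand is not given in the sources used here, so a noncoding RNA that overlaps another gene, Hotairm1 included, cannot be told apart from it.

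Transcription factor families differed in how their members moved. For SOX factors, 11 of 16 tested members rose and 2 fell, with a median log2 fold change of 0.88. Sox2, a core factor of the pluripotent state, had 181, 186 and 176 CPM at day 2, against 719.6, 726 and 704 CPM at day 0. Sox15, its close relative, had 1.59, 1.04 and 0.909 CPM at day 2, against 15.3, 13.4 and 13.7 CPM at day 0. These were the 2 that fell. The rises were led by Sox7, an endoderm and endothelial factor, with 26.4, 24.2 and 24.5 CPM at day 2, against 2.60, 2.89 and 2.78 CPM at day 0, and Sox9, of cartilage and gonad, with 7.58, 7.39 and 7.82 CPM at day 2, against 0.791, 1.31 and 0.886 CPM at day 0. Sox3, Sox6, Sox5 and Sox11 rose 5.69-fold, 5.61-fold, 2.68-fold and 2.45-fold, and Sox1 and Sox17, which mark neural and endodermal cells, rose less, 1.83-fold and 1.94-fold. Of 10 markers of neural progenitors and neurons, 4 rose and 2 fell, the summed level was 87.4 to 89.1 CPM at day 2 and 109 to 114 CPM at day 0, and Dcx and Neurog2 were among those at 0 counts at day 0; the part of such cells in the SOX result was not tested.

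Of GATA, HNF and FOXA factors, which pioneer endodermal genes, 8 of 12 tested members rose and 2 fell, with a median log2 fold change of 1.40. Foxa1 had 20.2, 21.1 and 20.7 CPM at day 2, against 2.60, 1.97 and 2.66 CPM at day 0. Foxa2 had 11.1, 11.1 and 11.2 CPM at day 2, against 0.565, 0.919 and 1.14 CPM at day 0. Gata6, which drives primitive endoderm, rose 4.01-fold, Hnf4a 3.07-fold and Gata4 2.09-fold. Gata1, of red blood cells, fell 6.10-fold at under 2 CPM. The endoderm markers rose too, as given above, but Gata6, Gata4 and Foxa2 belong to both sets, so the results share genes. The part of endoderm cells in the result was not tested.

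The TALE homeobox cofactors, which bind DNA beside Hox proteins, had 10 members that rose and 3 that fell of 16 tested, and a median log2 fold change of 0.68. Meis2 had 153, 158 and 146 CPM at day 2, against 21.02, 23.6 and 19.7 CPM at day 0 (edgeR adjusted p = 2.12e-31). Meis1 had 40.2, 39.5 and 39.2 CPM at day 2, against 3.62, 3.94 and 2.91 CPM at day 0 (edgeR adjusted p = 1.81e-27). They rose 7.10-fold and 11.3-fold. Irx3 and Pbx2 rose 3.24-fold and 2.89-fold, while Tgif1, a homeobox repressor, fell 1.73-fold. Of the KLF and SP factors, 4 of 20 tested members rose and 11 fell, with a median log2 fold change of -0.35 (7 rose and 10 fell under library size alone). Klf4, one of the reprogramming factors, fell 4.64-fold and Klf15 5.42-fold, whereas Klf6 rose 2.73-fold. Sp8, a limb and forebrain factor, had no count at day 0 and 2.20, 1.93 and 2.09 CPM at day 2. With 3 counts over the day 0 libraries as the floor, it was at least 16.9-fold higher.

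Of T-box factors, 3 of 11 tested members rose and 5 fell, with a median log2 fold change of -0.45. Tbx2 rose 9.44-fold, with means of 4.35 CPM at day 2 and 0.463 CPM at day 0. T, the mesoderm factor Brachyury, fell 6.36-fold, with means of 0.525 CPM at day 2 and 3.37 CPM at day 0. Of 8 mesoderm markers, 5 were tested: T and Hand1 fell, and Foxf1, Kdr and Meox1 rose. The summed level of the 8 was 42.7 to 43.8 CPM at day 2 and 14.2 to 17.3 CPM at day 0. Most of the day 2 sum was Meox1, with means of 30.2 CPM at day 2 and 2.11 CPM at day 0. Id2, an inhibitor of basic helix-loop-helix factors, had 25.1, 28.7 and 28.4 CPM at day 2, against 2.94, 2.49 and 1.27 CPM at day 0. Id3, another, had 6.52, 4.50 and 4.73 CPM at day 2, against 0.452, 0.263 and 0.506 CPM at day 0. Both were low at day 0, while Hes1, a Notch effector, fell 2.01-fold. Id1 was not called. Of immediate early genes, 4 of 16 tested members rose and 9 fell, with a median log2 fold change of -0.50. Junb had 5.002, 5.22 and 4.91 CPM at day 2, against 19.3, 19.4 and 21.1 CPM at day 0. Fosl1 had 0.152, 0.0804 and 0.273 CPM at day 2, against 2.03, 2.1 and 2.02 CPM at day 0. Jun, their relative, had 25.2, 25.2 and 27.4 CPM at day 2, against 8.93, 10.9 and 8.73 CPM at day 0. Jun rose and the other two fell, with no overlap of the days. Among nuclear receptors outside RAR and RXR, 7 rose and 9 fell of 21 tested, with a median log2 fold change of -0.07 (8 rose and 8 fell under library size alone). Esrrb and Nr5a2, both of the pluripotency network, fell 4.29-fold and 3.65-fold; Vdr, the vitamin D receptor, fell 6.23-fold; Pparg, of fat cells, had 2 counts at day 0 and a ratio of 4.99, with an exact 95% counting interval of 1.16 to 44.96; its call was lost without day 0 replicate 2 (edgeR adjusted p = 0.0898) and by DESeq2 (adjusted p = 0.0609).

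In the Hedgehog pathway, in which a secreted ligand relieves Ptch1's hold on Smo and frees the Gli factors, 12 of 17 tested members rose and 4 fell, with a median log2 fold change of 0.73. Shh had 1 count in all day 0 libraries and 6.67, 6.19 and 6.18 CPM at day 2; the ratio was 155, with an exact 95% counting interval of 27.5 to 6148. Ihh averaged 3.22 CPM at day 2 and 0.449 CPM at day 0, and Dhh, the desert form, averaged 1.03 CPM at day 2 and 3.73 CPM at day 0, the opposite order. Among receptors and coreceptors, Gas1 had 47.9, 45.3 and 49.8 CPM at day 2, against 2.71, 2.76 and 2.15 CPM at day 0 (edgeR adjusted p = 6.35e-29), Smo rose 2.16-fold, and Ptch1 rose 1.65-fold. Of the effectors, Gli1 and Gli2 fell and Gli3 rose. Gli1, itself a transcriptional target of the pathway, had 4.55, 4.82 and 5.09 CPM at day 2, against 30.6, 28.0 and 25.6 CPM at day 0 (edgeR adjusted p = 3.82e-22), and Gli2 had 16.9, 17.2 and 15.6 CPM at day 2, against 49.8, 48.3 and 51.0 CPM at day 0, while Gli3, mainly a repressor, rose 2.06-fold. Hhip, another target, which binds the ligand, rose 4.94-fold. The targets of the pathway therefore did not share a direction.

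For the Notch pathway 10 rose and 11 fell of 24 tested, with a median log2 fold change of 0.13; with library size alone 13 rose and 9 fell. Ligands parted: Jag2 and Jag1 fell and Dll1 rose. Jag2 had 23.6, 21.4 and 21.9 CPM at day 2, against 56.3, 62.4 and 56.2 CPM at day 0, and Jag1 fell 2.05-fold. Dll1, the ligand of the segmenting mesoderm, had 2.65, 2.17 and 3.001 CPM at day 2, against 0.452, 0.394 and 0.127 CPM at day 0. The receptors Notch4, Notch3 and Notch1 fell 7.79-fold, 2.04-fold and 1.66-fold, and Notch2 rose 1.27-fold. The nuclear coactivators Maml3 and Maml1 rose 9.21-fold and 3.13-fold, whereas Rbpj, the factor they bind, fell 1.71-fold. Maml3 had 15.99, 18.0 and 17.4 CPM at day 2, against 2.49, 0.919 and 2.02 CPM at day 0. Of the Hippo pathway and YAP targets, 13 of 22 tested members rose and 4 fell, with a median log2 fold change of 0.46. Amot, which holds YAP out of the nucleus, had 85.0, 89.3 and 90.8 CPM at day 2, against 24.1, 21.7 and 24.7 CPM at day 0 (edgeR adjusted p = 4.77e-26), and its relatives Amotl2 and Amotl1 rose 2.09-fold and 1.92-fold. Yap1 itself rose 1.77-fold; Tead4, its DNA-binding partner of trophoblast, fell 2.53-fold.

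Wnt receptors of the Frizzled family were called in both directions, as were all genes tested, of which 34.9% rose and 33.2% fell. Of ligands and receptors, 11 of 23 tested members rose and 7 fell, with a median log2 fold change of 0.31. Fzd5 had 12.3, 10.8 and 11.6 CPM at day 2, against 73.3, 76.9 and 66.6 CPM at day 0 (edgeR adjusted p = 3.91e-27), Fzd9 fell 5.43-fold and Fzd10 2.20-fold. In the other direction, Fzd4 had 30.8, 29.0 and 32.4 CPM at day 2, against 4.41, 4.46 and 3.54 CPM at day 0 (edgeR adjusted p = 9.65e-23), and Fzd2, Fzd8, Fzd1 and Fzd7 rose 6.02-fold, 4.53-fold, 3.73-fold and 2.45-fold. Wnt5a, a noncanonical ligand, and its receptor Ror1 rose 5.75-fold and 8.91-fold, at 2.19 and 2.29 CPM at day 2. Wnt6 had 3 counts over the day 2 libraries, and its ratio of day 2 to day 0 was 0.0312, with an exact 95% counting interval of 0.00627 to 0.0953. Sfrp5, a secreted Wnt antagonist outside this list, had 22.5, 21.1 and 23.8 CPM at day 2, against 0.678, 0.263 and 0.380 CPM at day 0.

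**Figure D3:**
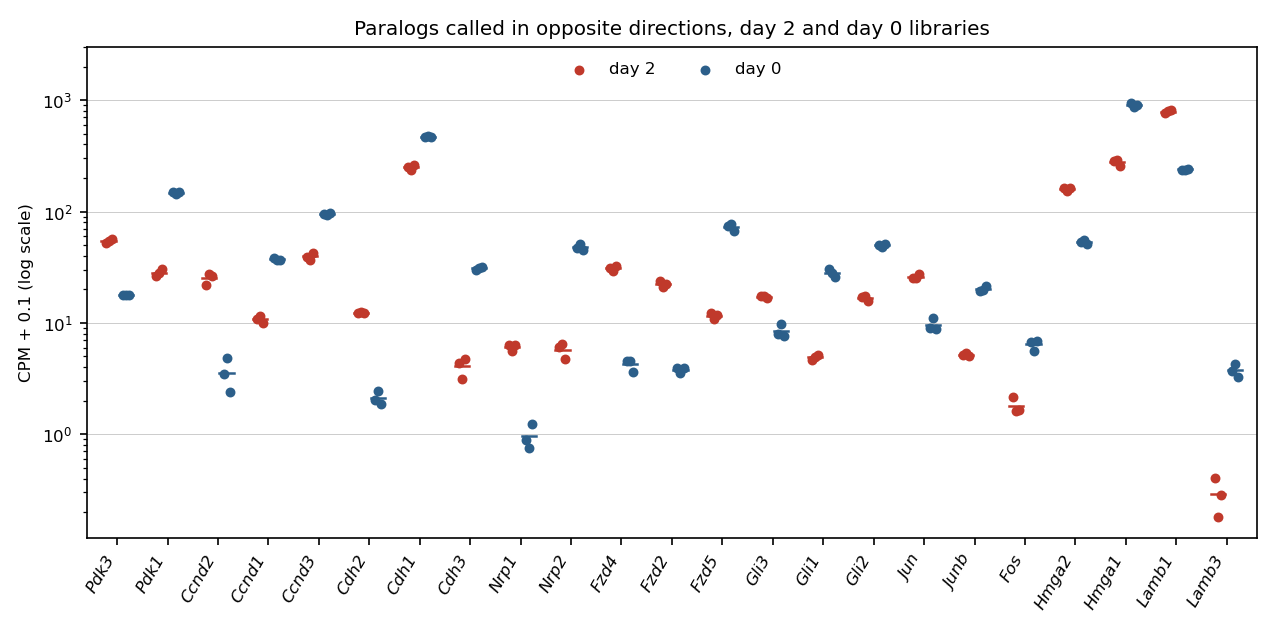
Level in CPM plus 0.1 (log axis) of related genes from 9 families, a point for each library and a bar at the mean, day 2 left of day 0. The families were picked because at least 1 member was called higher at day 2 and at least 1 lower. Among all genes tested, 34.9% were called higher and 33.2% lower. Pdk3, for example, had a mean of 54.2 CPM at day 2 and 17.6 at day 0, and Pdk1 had 28.2 and 147 CPM.

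Guidance receptors were also called in both directions. Calls in both directions were common among all genes tested, of which 34.9% rose and 33.2% fell. Of semaphorins, plexins and neuropilins, 9 of 28 tested members rose and 16 fell, with a median log2 fold change of -0.40. Plxna2, a semaphorin receptor, had 38.1, 40.5 and 35.9 CPM at day 2, against 2.03, 2.1 and 2.40 CPM at day 0 (edgeR adjusted p = 2.22e-26). Plxnb2, another, had 66.4, 68.7 and 65.5 CPM at day 2, against 203, 202 and 191 CPM at day 0 (edgeR adjusted p = 2.87e-27). The neuropilins, coreceptors for semaphorins and VEGF, parted too. Nrp1 had 6.21, 5.55 and 6.28 CPM at day 2, against 0.791, 0.656 and 1.14 CPM at day 0. Nrp2 had 5.91, 6.35 and 4.64 CPM at day 2, against 46.9, 50.8 and 45.3 CPM at day 0. No library of either day overlapped the other in these 4 genes. Of ephrins and Eph receptors 5 rose and 6 fell of 18 tested, with a median log2 fold change of 0.15 (8 rose and 4 fell under library size alone): Epha4 and Epha2 fell 2.69-fold and 2.83-fold and Efnb1 rose 3.67-fold.

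Receptor tyrosine kinases and their ligands had 13 members that rose and 11 that fell of 34 tested, and a median log2 fold change of -0.05. Pdgfra, which marks primitive endoderm and mesoderm, had 107, 105 and 105 CPM at day 2, against 33.3, 36.0 and 32.6 CPM at day 0. Its ligand Pdgfa had 4.70, 3.70 and 3.91 CPM at day 2, against 20.7, 19.4 and 18.7 CPM at day 0. The receptor and the ligand thus ran in opposite directions. Gfra1, the receptor for GDNF, had 34.9, 34.7 and 38.0 CPM at day 2, against 2.71, 3.15 and 4.05 CPM at day 0 (edgeR adjusted p = 5.35e-25); its signalling partner Ret was not called. Igf2, an insulin-like growth factor, had 29.0, 28.9 and 28.8 CPM at day 2, against 3.39, 2.89 and 3.42 CPM at day 0. Igf1, its relative, had 5.08, 3.54 and 4.91 CPM at day 2, against 0.452, 0.263 and 0.380 CPM at day 0. Both rose, while Igf2r, which clears IGF2, fell 1.40-fold and Igf1r was not called except without day 2 replicate 2 (log2 fold change -0.20, edgeR adjusted p = 0.038). The ligands Vegfa and Pdgfb and the receptor Erbb3 fell 1.51-fold, 4.75-fold and 2.47-fold, and Kdr, a VEGF receptor, and Hgf, hepatocyte growth factor, rose 3.58-fold and 7.12-fold.

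Of classical cadherins and catenins, 10 of 16 tested members rose and 4 fell, with a median log2 fold change of 0.50. Cdh1 (E-cadherin), which holds embryonic stem cells together, had 251, 234 and 262 CPM at day 2, against 466, 481 and 463 CPM at day 0. Cdh2 (N-cadherin), of neural and mesodermal cells, had 12.3, 12.5 and 12.1 CPM at day 2, against 1.92, 2.36 and 1.77 CPM at day 0. Per kilobase of exon, Cdh1 remained above Cdh2 on both days, at 54.5 and 1.52 CPM at day 2 and at 103 and 0.250 CPM at day 0. Cdh3 (P-cadherin) fell 7.78-fold, Cdh6 rose 4.24-fold, and Cdh11 was at 0 counts at day 0 and at least 6.21-fold higher at day 2. Of tight junction proteins, 7 of 19 tested members rose and 5 fell, with a median log2 fold change of -0.05. Tjp3, a scaffold, had 5.61, 6.19 and 4.09 CPM at day 2, against 46.6, 44.8 and 42.3 CPM at day 0, and Cgn, cingulin, fell 2.32-fold, while its relative Cgnl1 rose 2.25-fold and Cldn2 12.1-fold.

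Of collagen chains and their processing enzymes, 14 of 25 tested members rose and 8 fell, with a median log2 fold change of 0.46. Col4a1 and Col4a2, the 2 main chains of type IV collagen that share a promoter region, rose together. Col4a1 had 1365, 1346 and 1303 CPM at day 2, against 481, 458 and 455 CPM at day 0. Col4a2 had 760.2, 789.8 and 723 CPM at day 2, against 258, 254 and 258 CPM at day 0. Serpinh1, the collagen chaperone, had 615, 596 and 610.5 CPM at day 2, against 111, 119 and 112 CPM at day 0 (edgeR adjusted p = 1.89e-32). Pcolce, which helps to trim fibrillar procollagen, had 4.39, 4.58 and 5.001 CPM at day 2, against 56.5, 53.2 and 54.5 CPM at day 0, and Col6a1 fell 5.63-fold. Sparc, a collagen-binding matrix protein, had 1069, 1011 and 1078 CPM at day 2, against 315, 309.7 and 315 CPM at day 0. Of laminins, integrins and other basement membrane genes, 15 of 32 tested members rose and 13 fell, with a median log2 fold change of 0.42. Lama1, Lamb1 and Lamc1, which together form the laminin of the early embryo, rose 2.19-fold, 3.30-fold and 1.60-fold, while Lama5 and Lamb3 fell 2.69-fold and 18.0-fold. Itga2, a collagen receptor, had 3.56, 2.81 and 3.37 CPM at day 2, against 0.339, 0 and 0.127 CPM at day 0.

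Feeder cells share part of these genes. Of 14 feeder fibroblast markers, 11 were tested: 4 rose (Twist1, Twist2, Fbn1 and Thbs2), 3 fell (Thy1, Pdgfrb and Mfap5), and the summed level of the list was 63.4 to 66.6 CPM at day 2 and 46.0 to 50.6 CPM at day 0. Dcn was at 0 counts at day 2, and Lum, Fap and Thbs2 were at 0 counts at day 0. Twist2 rested on 10 counts at day 2 and 1 at day 0, and its call was lost on leaving out day 2 replicate 1, day 2 replicate 3, day 0 replicate 1 or day 0 replicate 2 (edgeR adjusted p = 0.0752, 0.143, 0.143 and 0.12). Whether the feeder cells contributed to the matrix genes was not tested.

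Glypicans, syndecans and heparan sulphate enzymes, which present growth factors at the cell surface, had 17 members that rose and 5 that fell of 24 tested, and a median log2 fold change of 0.57. Gpc3, the glypican lost in an overgrowth syndrome, had 139, 151 and 126 CPM at day 2, against 50.4, 46.7 and 53.7 CPM at day 0. Hs6st2, a sulphotransferase, had 4.55, 6.51 and 4.55 CPM at day 2, against 0.226, 0.263 and 0.253 CPM at day 0. Extl1, a glycosyltransferase, had 1.36, 1.53 and 2.09 CPM at day 2, against 10.6, 11.9 and 12.02 CPM at day 0. Gpc3 and Hs6st2 rose, and Extl1 fell. Mdk and Ptn, heparin-binding cytokines, both rose. Mdk (midkine), a gene known to respond to retinoic acid, had 2869, 3060.0 and 2903 CPM at day 2, against 302, 294 and 296 CPM at day 0 (edgeR adjusted p = 3.77e-38). Ptn (pleiotrophin) had 8.56, 9.89 and 9.09 CPM at day 2, against 0.113, 0.131 and 0.253 CPM at day 0 (edgeR adjusted p = 8.13e-20).

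Of ribosome biogenesis and polymerase I genes, 2 of 32 tested members rose and 28 fell, with a median log2 fold change of -0.56 (4 rose and 24 fell under library size alone). Nolc1, a nucleolar chaperone, had 371, 381 and 361 CPM at day 2, against 732, 706 and 778 CPM at day 0. Rrn3, which recruits polymerase I, fell 1.85-fold, and Ncl and Npm1, the abundant nucleolar proteins, fell 1.62-fold and 1.49-fold. Dkc1 was an exception, with 313, 324 and 322 CPM at day 2, against 213, 215 and 217 CPM at day 0. Of purine and pyrimidine synthesis genes, 4 of 28 tested members rose and 23 fell, with a median log2 fold change of -0.71. Gart, Umps, Cad and Rrm2 fell 2.13-fold, 2.28-fold, 2.01-fold and 2.05-fold. Gart, an enzyme of purine synthesis, had 180.4, 174 and 180.1 CPM at day 2, against 366, 382 and 395 CPM at day 0, with no overlap. For tRNA synthetases 2 rose and 16 fell of 23 tested, with a median log2 fold change of -0.30 (5 rose and 13 fell under library size alone), led by Tars, with 494, 524 and 455 CPM at day 2, against 847, 796 and 859 CPM at day 0. Among all genes tested at 100 to 500 CPM, 29.7% rose and 49.1% fell. The part of expression level in the results of these lists was not tested.

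Serine, glycine, threonine and one-carbon genes had 4 members that rose and 16 that fell of 26 tested, and a median log2 fold change of -0.30. Tdh, threonine dehydrogenase, on which mouse embryonic stem cells depend, had 6.67, 6.51 and 7.18 CPM at day 2, against 43.7, 39.9 and 41.8 CPM at day 0 (edgeR adjusted p = 7.87e-24). Mthfd1 had 280.3, 271 and 273 CPM at day 2, against 608, 599.9 and 603 CPM at day 0, and Shmt1 fell 2.16-fold. Of the enzymes that make serine, Psat1 fell 1.36-fold and Phgdh 1.08-fold, and the direction of Phgdh turned under library size alone, to a log2 fold change of 0.026. Its call was also lost without day 2 replicate 1 or 3 or day 0 replicate 1 or 3 (edgeR adjusted p = 0.0965, 0.0604, 0.197 and 0.0975). Of amino acid transporters 8 rose and 12 fell of 25 tested, with a median log2 fold change of -0.18 (10 rose and 9 fell under library size alone), with Slc16a3, a lactate and monocarboxylate exporter grouped with them, 2.62-fold lower and Slc7a5 1.60-fold lower.

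Of the genes of the citrate cycle and pyruvate entry, 9 of 32 tested members rose and 17 fell, with a median log2 fold change of -0.15; with library size alone 13 rose and 13 fell. The pyruvate dehydrogenase kinases, which shut pyruvate out of the cycle, changed members. Pdk1 had 26.4, 27.8 and 30.2 CPM at day 2, against 150.3, 143 and 149 CPM at day 0. Pdk3 had 52.3, 54.0 and 56.3 CPM at day 2, against 17.7, 17.6 and 17.6 CPM at day 0. Pdk1 was higher in every day 0 library and Pdk3 in every day 2 library, and Pdk4 fell 3.10-fold. Per kilobase of exon Pdk1 was at 3.62 CPM and Pdk3 at 21.2 CPM at day 2, and at 18.96 and 6.89 CPM at day 0. Of nuclear-encoded respiratory chain subunits, 7 of 40 tested members rose and 25 fell, with a median log2 fold change of -0.24 (13 rose and 18 fell under library size alone), and Atp5b and Uqcrc1 fell 1.52-fold and 1.52-fold. Strongly expressed genes fell more often in general. Among all genes tested at 100 to 500 CPM, 29.7% rose and 49.1% fell, and over 500 CPM 17.7% rose and 63.9% fell. The part of expression level in the respiratory chain result was not tested. Fatty acid oxidation and peroxisome genes were even, 12 rose and 12 fell of 28 tested, with a median log2 fold change of -0.01 (14 rose and 9 fell under library size alone), with Cpt1a, the gate of mitochondrial fatty acid entry, at 82.8, 77.7 and 73.8 CPM at day 2, against 220.4, 221 and 219.5 CPM at day 0.

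Lysosomal genes went the other way. Of lysosome and proton pump genes, 30 of 37 tested members rose and 4 fell, with a median log2 fold change of 0.50. Ctsc, a cathepsin, had 42.4, 40.1 and 44.5 CPM at day 2, against 9.27, 7.48 and 7.59 CPM at day 0. Ctsl, another, had 741, 699.7 and 764 CPM at day 2, against 374, 357 and 367 CPM at day 0. The membrane proteins Lamp2 and Lamp1 rose 2.68-fold and 1.76-fold, and the cholesterol exporter Npc1 rose 2.38-fold. The summed level of the list was 3693 to 3886 CPM at day 2 and 2574 to 2609 CPM at day 0. Of the factors that switch these genes on, Tfeb had 6.21, 7.39 and 5.46 CPM at day 2, against 22.6, 23.8 and 22.5 CPM at day 0 (edgeR adjusted p = 1.47e-17) and Tfe3 rose 1.24-fold. Thus the list and Tfeb moved in opposite directions.

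Apolipoproteins and lipid carriers, products of the visceral endoderm and liver, had 13 members that rose and 7 that fell of 22 tested, and a median log2 fold change of 0.82. Apob, the core protein of large lipoproteins, had 17.8, 15.7 and 14.8 CPM at day 2, against 0.791, 1.05 and 0.886 CPM at day 0. Ttr, the carrier of thyroid hormone and of Rbp4, had 7.35, 6.51 and 7.002 CPM at day 2, against 0.113, 0.394 and 0.127 CPM at day 0. Both were near 1 CPM or less in each day 0 library. Lrp2, the megalin receptor that takes up carrier-bound vitamins, had 159, 148 and 150.1 CPM at day 2, against 36.0, 41.2 and 40.5 CPM at day 0 (edgeR adjusted p = 3.43e-28), whereas the related receptor Lrp1 fell 3.01-fold. Afp, with 2 counts over the day 0 libraries, had 2.96, 4.10 and 3.09 CPM at day 2, and its ratio was 41.2, with an exact 95% counting interval of 11.2 to 344. Of iron and metal genes, 13 of 25 tested members rose and 9 fell, with a median log2 fold change of 0.18. Tfrc, the transferrin receptor, had 90.2, 97.6 and 100.2 CPM at day 2, against 571, 598 and 583 CPM at day 0 (edgeR adjusted p = 6.07e-34), and the metallothioneins Mt2 and Mt1 rose 4.43-fold and 2.45-fold. Glutathione and NRF2 target genes divided evenly, 12 rose and 12 fell of 29 tested, with a median log2 fold change of 0.11 (16 rose and 8 fell under library size alone), with Sod2 2.35-fold lower and Gpx8 2.50-fold higher.

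**Figure D4:**
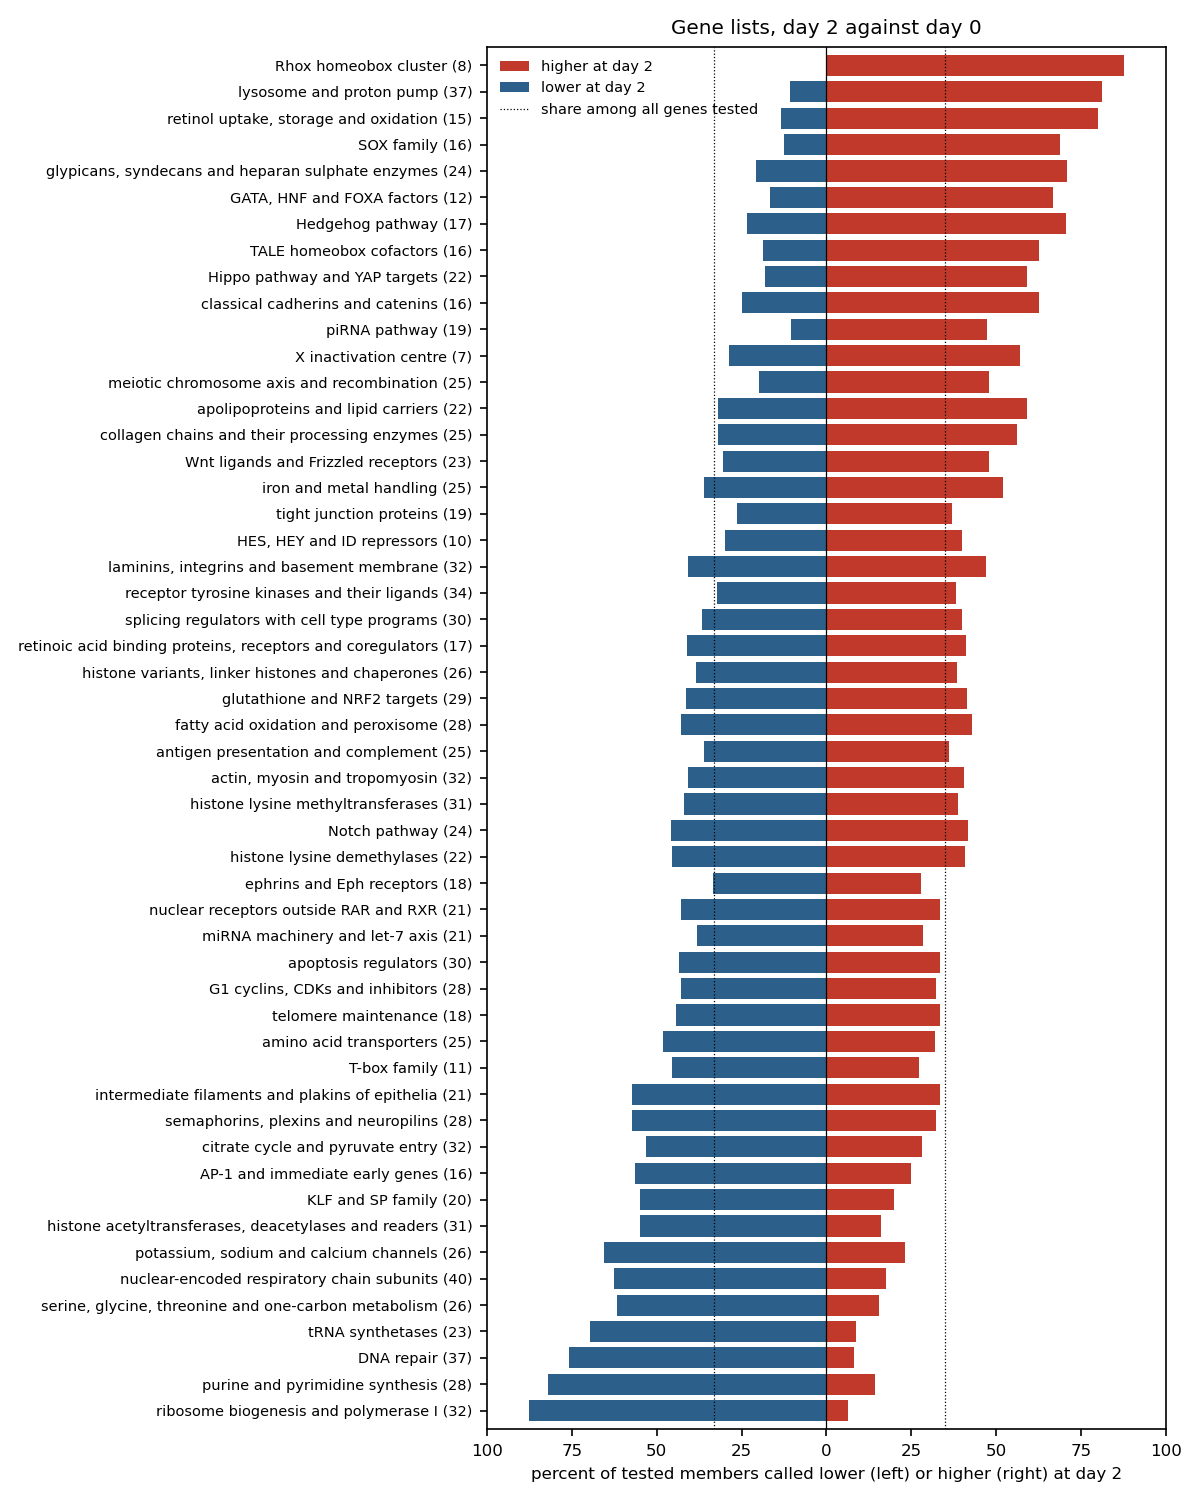
Percent of the tested members of each gene list (number tested in brackets) that were called higher at day 2 (right, red) or lower (left, blue), ordered by the difference; dotted lines give the shares among all genes tested, 34.9% and 33.2%. Lysosomal, retinol and Rhox genes lie at the top, and DNA repair, nucleotide synthesis and ribosome biogenesis genes at the bottom.

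Few DNA repair genes rose: 3 of 37 tested members rose and 28 fell, with a median log2 fold change of -0.41 (5 rose and 25 fell under library size alone). Msh6, of mismatch repair, had 589, 618 and 551 CPM at day 2, against 996, 978 and 1044 CPM at day 0. Xrcc6 (Ku70) fell 1.90-fold, and Parp1 1.73-fold. The 3 rises were Xpa, Fancc and Ercc1. Of telomere genes, 6 of 18 tested members rose and 8 fell, with a median log2 fold change of -0.11: Tert, the telomerase protein, fell 1.96-fold, and Zbtb10, which binds telomeric repeats, rose 2.30-fold. Rif1, a protein of replication timing and telomeres, had 175, 176 and 175 CPM at day 2, against 327, 319 and 328 CPM at day 0.

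Among histone modifiers, acetyltransferases, deacetylases and readers had 5 members that rose and 17 that fell of 31 tested, and a median log2 fold change of -0.23; under library size alone 10 rose and 14 fell. Kat6b, an acetyltransferase of the MYST family, had 259, 263 and 248 CPM at day 2, against 884, 827 and 872 CPM at day 0 (edgeR adjusted p = 4.79e-30), and Brdt, a bromodomain protein of the testis, had 34.3, 32.6 and 33.5 CPM at day 2, against 7.57, 7.61 and 8.48 CPM at day 0 (edgeR adjusted p = 2.47e-21). Methyltransferases were even, 12 rose and 13 fell of 31 tested, with a median log2 fold change of -0.06 (15 rose and 10 fell under library size alone), with Prdm14, a guardian of pluripotency and germ cells, 6.33-fold lower and Setd1b 3.47-fold higher. Prdm14 had 4.09, 3.86 and 4.46 CPM at day 2, against 26.8, 23.9 and 27.7 CPM at day 0. Setd1b had 45.2, 46.2 and 43.3 CPM at day 2, against 13.8, 12.5 and 12.4 CPM at day 0. Demethylases moved by less than 2-fold except Kdm8: 9 rose and 10 fell of 22 tested, with a median log2 fold change of -0.03 (11 rose and 8 fell under library size alone). Of histone variants, linker histones and chaperones 10 rose and 10 fell of 26 tested, with a median log2 fold change of 0.05, and 14 rose and 10 fell under library size alone. The macroH2A genes H2afy2 and H2afy rose 2.56-fold and 1.66-fold.

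Genes of the meiotic chromosome axis and recombination had 12 members that rose and 5 that fell of 25 tested, and a median log2 fold change of 0.19. Rec8, the meiotic cohesin, had 86.9, 83.8 and 92.4 CPM at day 2, against 11.3, 10.2 and 8.35 CPM at day 0 (edgeR adjusted p = 5.73e-29). Sycp2, of the synaptonemal complex, had 9.93, 9.89 and 8.91 CPM at day 2, against 2.49, 1.71 and 2.15 CPM at day 0. Sycp1, of the same complex, rose 2.03-fold, and Meioc, which germ cells need to pass through meiosis, rose 1.54-fold. Msh5, of meiotic crossing over, fell 2.89-fold, Dmc1, the meiotic recombinase, 1.196-fold (not called under library size alone), and Hormad1, Smc1b and Stag3 were not called, though Stag3 was under library size alone. Of the piRNA pathway list, 9 of 19 tested members rose and 2 fell, with a median log2 fold change of 0.21 (10 rose and 0 fell under library size alone), and 8 were not called. Tdrd3, a Tudor domain protein grouped with them, rose 3.43-fold.

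The G1 cyclins did not share a direction. Of cyclins, kinases and inhibitors of G1, 9 of 28 tested members rose and 12 fell, with a median log2 fold change of -0.04, and 12 rose and 12 fell under library size alone. Ccnd1 had 10.8, 11.3 and 9.82 CPM at day 2, against 38.4, 36.5 and 36.6 CPM at day 0. Ccnd3 had 39.2, 36.7 and 42.4 CPM at day 2, against 95.2, 93.9 and 96.8 CPM at day 0. Ccnd2 had 21.9, 27.5 and 26.4 CPM at day 2, against 3.39, 4.73 and 2.28 CPM at day 0. Ccnd1 and Ccnd3 fell and Ccnd2 rose, with no overlap of the days. Of the inhibitors, Cdkn1a (p21) had 28.5, 29.8 and 30.9 CPM at day 2, against 111, 109 and 106 CPM at day 0 (edgeR adjusted p = 5.54e-26), while Cdkn1b and Cdkn1c rose 1.48-fold and 2.32-fold. Apoptosis regulators had 10 members that rose and 13 that fell of 30 tested, and a median log2 fold change of -0.0024, and 13 rose and 10 fell under library size alone. Pmaip1 (Noxa), Bbc3 (Puma) and Bax, which promote death, fell 4.46-fold, 2.57-fold and 1.77-fold. The survival genes Bcl2, Bcl2l1 and Bcl2l2 were not called; without day 2 replicate 2, Bcl2 was (log2 fold change 1.30, edgeR adjusted p = 0.0418), and Bcl2l1 and Bcl2l2 were higher under library size alone.

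Of epithelial intermediate filaments and plakins, 7 of 21 tested members rose and 12 fell, with a median log2 fold change of -0.23. The paired simple-epithelium keratins Krt8 and Krt18 rose 2.91-fold and 2.55-fold. Krt8 had 64.7, 69.8 and 75.8 CPM at day 2, against 23.7, 24.4 and 23.9 CPM at day 0. Dsp, desmoplakin, had 440.3, 469.8 and 434 CPM at day 2, against 127, 123 and 138 CPM at day 0 (edgeR adjusted p = 1.01e-28). St14, the protease matriptase, had 26.2, 28.5 and 30.1 CPM at day 2, against 96.5, 102 and 98.6 CPM at day 0. Lad1, of epithelial anchoring filaments, fell 8.23-fold. Actin, myosin and tropomyosin genes were even, 13 rose and 13 fell of 32 tested, with a median log2 fold change of -0.05 (15 rose and 10 fell under library size alone). Myh14, a nonmuscle myosin, fell 6.35-fold. Vim, the intermediate filament protein of mesenchymal and parietal cells, rose 3.58-fold. Vim had 236, 224 and 230.0 CPM at day 2, against 65.5, 64.1 and 63.0 CPM at day 0. Myh14 had 15.0, 15.3 and 16.1 CPM at day 2, against 97.9, 95.7 and 101 CPM at day 0. Splicing regulators had 12 members that rose and 11 that fell of 30 tested, and a median log2 fold change of 0.02: the neuronal RNA-binding protein Elavl3 had 2.58, 1.85 and 1.27 CPM at day 2, against 24.3, 26.4 and 26.3 CPM at day 0, the epithelial regulator Esrp1 fell 4.73-fold, and Ptbp2 rose 3.58-fold. Of antigen presentation and complement genes 9 rose and 9 fell of 25 tested, with a median log2 fold change of 0.11 (10 rose and 8 fell under library size alone), with B2m 2.14-fold higher and Tap2 2.16-fold lower.

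Potassium, sodium and calcium channels mostly fell: 6 of 26 tested members rose and 17 fell, with a median log2 fold change of -0.71. Hcn2, a pacemaker channel, had 1.97, 2.33 and 2.82 CPM at day 2, against 16.7, 17.6 and 18.0 CPM at day 0, and Kcnn1 fell 6.33-fold, while Cacna1s, the skeletal muscle calcium channel, had 13.9, 12.3 and 14 CPM at day 2, against 2.15, 2.36 and 2.28 CPM at day 0. Kcnd3 was at 0 counts at day 0 and at least 7.10-fold higher at day 2.

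A small part of the genes that changed at least 2-fold lay in runs of at least 5 neighbouring tested genes with the same direction. There were 30 runs, 22 that rose and 8 that fell. They held 229 genes in all, against 1960 rises and 1704 falls of at least 2-fold among all genes tested. Overlapping genes, such as Mir675 within H19, were counted as separate members. The longest included 24 genes of chromosome 12 (chr12:87480108-88329682, mm10) and 13 of chromosome 10 (chr10:100330540-100397070), both made largely of predicted genes with Gm names, and the counting may have split reads between close copies there. The Hoxa run held 19 genes over 85.3 kb, all higher, with a median log2 fold change of 3.69, the Hoxb run, which reached Skap1, 12 genes with 8.36, and the Hoxc run 9 genes with 3.69. A run on chromosome 13 (chr13:93616675-94195409) joined Bhmt, Bhmt2 and Dmgdh, of betaine metabolism, with Arsb, a lysosomal sulphatase, and Lhfpl2. Arsb had 8.79, 10.3 and 9.73 CPM at day 2, against 1.24, 0.788 and 1.65 CPM at day 0. Lhfpl2 had 29.6, 31.0 and 29.0 CPM at day 2, against 4.07, 5.12 and 4.68 CPM at day 0. H19, Mir675 and Igf2 formed another, at chr7:142575529-142670356. A run of 10 genes on chromosome 1 is the Ugt1a cluster with Dnajb3; the Ugt1a genes share exons, so that its members are not separate measurements. Among runs that fell were the 6 genes of the miR-290 cluster, 5 around Tdgf1 and Lrrc2, 6 from H2-Q10 through Pou5f1 to Mucl3, and 6 from Tfr2 through Pcolce.

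The X chromosome had a higher share of rises than any autosome. Of 637 tested genes, 161 rose (25.3%) and 25 fell (3.92%) by at least 2-fold, against 11.4% and 10.6% of genes on all autosomes. Single autosomes ranged from 7.31% (chromosome 17) to 16.6% (chromosome 6) for rises and from 5.79% (chromosome 13) to 15.9% (chromosome 15) for falls. The difference was not limited to weakly expressed genes: among those at 20 CPM or more, 16.7% rose and 2.39% fell on the X chromosome, against 5.83% and 6.66% on autosomes. Named genes among those that rose most there were Gpr50, Hs6st2, Dgkk, Nxf2 and Capn6. Dgkk, a diacylglycerol kinase, had 6.90, 6.91 and 5.55 CPM at day 2, against 0.678, 1.05 and 0.886 CPM at day 0. The Rhox homeobox cluster, of the reproductive tract and early embryo, had 8 tested members, of which 7 rose and the other was not called. Rhox5 had 178, 193 and 182 CPM at day 2, against 76.6, 74.96 and 77.8 CPM at day 0. Rhox13 had 123, 117 and 105 CPM at day 2, against 48.6, 50.3 and 49.99 CPM at day 0. Reads between the close copies of Rhox2 may have been split by the counting. Of the X inactivation centre, 4 of 7 tested members rose and 2 fell, with a median log2 fold change of 1.10, and 4 rose and 0 fell under library size alone; Tsix was not called, at 17.3, 17.3 and 15.2 CPM at day 2, against 17.4, 16.8 and 14.8 CPM at day 0, and Ftx rose 2.14-fold.

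**Figure D5:**
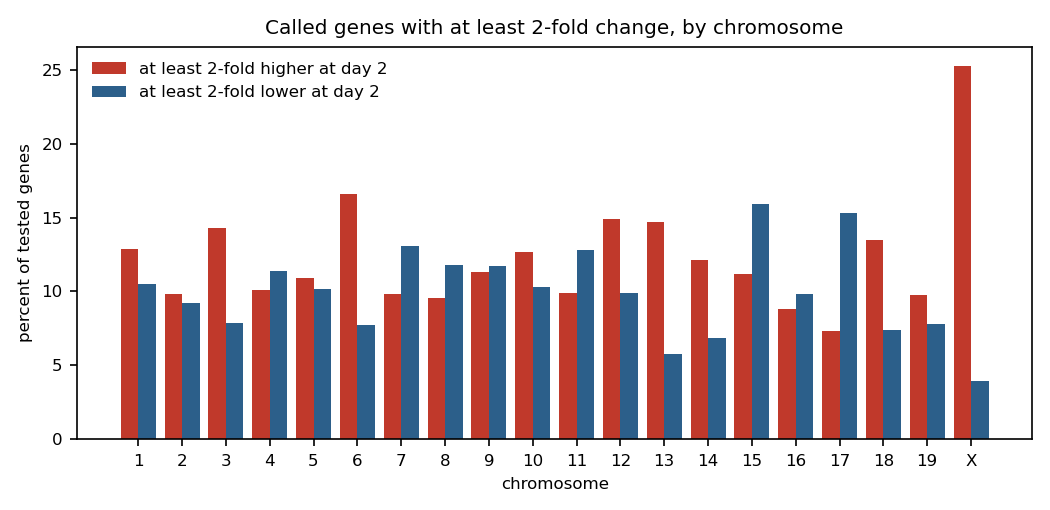
Percent of the tested genes of each chromosome called at least 2-fold higher (red, left bar) or at least 2-fold lower (blue, right bar) at day 2. The X chromosome stands at 25.3% and 3.92%, outside the range of the autosomes on both counts.

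By level, the strongest genes mostly fell. Of 294 genes over 500 CPM, 52 rose (17.7%) and 188 fell (63.9%), against 34.9% and 33.2% of all genes tested. Their summed level was 307540 CPM at day 2 and 375456 CPM at day 0. The TMM factors were 1.01 to 1.04 at day 2 and 0.935 to 0.944 at day 0. Part of the gap between the sums is therefore the scaling. The split of rises and falls in this set was not counted under library size alone. The largest falls in CPM after that of Hsp90aa1 were Ybx1, an RNA-binding protein, with 4363, 4415 and 4440.0 CPM at day 2, against 7335, 7078 and 7045 CPM at day 0, and Pkm, pyruvate kinase, with 1600.0, 1603 and 1579 CPM at day 2, against 3972, 3828 and 3979 CPM at day 0; Ptma and Pabpc1 were among the 15 largest as well. The largest rises in CPM besides those already given included Dusp9, a phosphatase of ERK on the X chromosome, with 866, 1022 and 879 CPM at day 2, against 223, 233 and 228 CPM at day 0.

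Among the genes tested, 12 had no count at day 0 and at least 1 CPM at day 2. The filter on low counts used the libraries of all days, so a gene with no count at day 0 could pass through its level on a later day. Hoxb3 had 1 count at day 0 and 19.7, 20.5 and 19.8 CPM at day 2, a ratio of 488, with an exact 95% counting interval of 87.2 to 19284. Hoxb1 had 2 counts at day 0 and 27.7, 28.1 and 25.1 CPM at day 2, a ratio of 329.6, with an exact 95% counting interval of 91.0 to 2725. Both were thus at the edge of detection in day 0 cells.

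Among the 20 largest rises by fold with at least 5 CPM, several were not members of the lists. Gpr50, an orphan receptor related to the melatonin receptors, had 63.3, 58.0 and 54.1 CPM at day 2, against 0.339, 0.394 and 0.380 CPM at day 0 (edgeR adjusted p = 1.6e-09). Zfp703, a zinc finger repressor, had 104, 88.0 and 102 CPM at day 2, against 1.13, 0.788 and 1.27 CPM at day 0 (edgeR adjusted p = 6.18e-33), and Hoxc8, of the Hoxc cluster, had 16.4, 18.3 and 15.9 CPM at day 2, against 0.226, 0.263 and 0.127 CPM at day 0. Arg1, arginase of the urea cycle, had 6.74, 8.52 and 8.18 CPM at day 2, against 0.226, 0.131 and 0.127 CPM at day 0. All 4 were under 2 CPM in each day 0 library.

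The 20 largest falls by fold held proteins of unlike function. Socs3, the feedback inhibitor that STAT3 induces when leukaemia inhibitory factor signals, had 4.17, 3.30 and 5.82 CPM at day 2, against 126, 131 and 130.1 CPM at day 0 (edgeR adjusted p = 4.17e-34). Nags, which makes the cofactor that starts the urea cycle, had 0.455, 0.161 and 0.273 CPM at day 2, against 9.04, 6.17 and 9.11 CPM at day 0, the reverse of Arg1. Kcnh3, a potassium channel, had 0.682, 0.563 and 0.273 CPM at day 2, against 15.1, 13.4 and 12.4 CPM at day 0. Each of these had a day 0 level that no day 2 library came near. Tcl1, a coactivator of AKT, had 1.36, 1.04 and 1.36 CPM at day 2, against 24.6, 21.4 and 24.6 CPM at day 0. Sfn, the epithelial protein stratifin, had 5.61, 5.87 and 4.91 CPM at day 2, against 91.4, 89.7 and 85.0 CPM at day 0 (edgeR adjusted p = 4.1e-32). Anxa8, Pou2f3, Lrrc2, Dnah17 and Wscd2 were also among these 20, with falls of 15.6-fold to 23.2-fold.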

How the data were processed

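RNA was measured in 12 libraries of mouse embryonic stem cells, 3 each at days 0, 2, 4 and 6, prepared with the SMARTER mRNA-Seq kit per the labels. The authors deposited raw counts per gene; the submitters' processing notes name FastQC 0.11.7, HISAT2 2.1.0, featureCounts 2.0.1, DESeq2 and the mm10 build. Strand setting, treatment of reads with several matches and annotation release are not given in the sources used here.

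Genes with too few counts were left out (filterByExpr), libraries were scaled by TMM, and all 12 libraries were fitted with day as the factor (edgeR 4.0.16, R 4.3.3, quasi-likelihood test with Benjamini-Hochberg adjustment; threshold 0.05). CPM values use the TMM-scaled library sizes, and folds are fitted values. Where a day had no count, a bound with 3 counts over its libraries is given; with 1 to 3 counts, the ratio of CPM with an exact 95% interval, which covers counting error only. Total counts per library ran from 6945900 to 13266962. Gene names and positions came from GENCODE M21 by gene ID (55154 of 55335 matched); promoter and microRNA sequences came from RefSeq tables of GRCm38.p6. The procedure was tested on simulated data. The members and gene lists were chosen with earlier results of these data known. Named genes are called, non-overlapping genes with at least 5 CPM on the higher day (the 20 largest rises and falls by fold, 15 by CPM difference, 10 long noncoding RNAs each way), members of the lists, and runs of at least 5 neighbours. Alternatives were other scalings, filters, tools and thresholds, thinning to equal depth, the replicate block and leaving out each library. Some genes are not reported here.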

Additional observations from a re-analysis of the deposited data

How the results depend on the processing

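With library size as the only scaling, 11465 genes were called and 61.5% of these were higher at day 2, against 5743 of 11216 under TMM; the median of all genes moved by 0.132 to 0.149 (log2), and 35 gene lists held more rises than falls in place of 22. Of the 16 lists whose balance turned, each is given with both counts in the text. Phgdh turned direction there, to a log2 fold change of 0.02593 (edgeR adjusted p = 0.632). The other alternatives gave 9776 called genes (adjusted p of 0.01) to 11954 (no filter); DESeq2 called 10214, of which 10190 were shared with edgeR. Leaving out each library in turn gave 10495 to 10885 called genes. The fit with the replicate block called 11195 genes. Deviations from the day mean correlated at -0.0102, -0.0382 and -0.0152 between libraries with the same number. With 3 libraries a day and little spread between them, these values cannot show whether equal numbers shared a culture or batch. Differences of genes under about 1 CPM rest on few counts.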
